A study of Mus musculus with 27 samples.

Results

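The genes described here are 10 members of the NRF2 and glutathione defence: Nfe2l2, which encodes the transcription factor NRF2, and Nqo1, Gstm1, Gstm2, Gsta4, Hmox1, Gclc, Gclm, Srxn1 and Txnrd1, which encode enzymes of detoxification, heme breakdown, glutathione synthesis and thiol repair. They were chosen by symbol as members of the pathway, with earlier results of these data known, and are 10 of the 20446 genes in the count table. The samples were C2C12, a mouse muscle precursor line whose cells fuse into multinucleate myotubes on low serum. Cells were expanded in DMEM (10% FBS), plated in 6-well plates and differentiated near confluence in DMEM with horse serum at 2%, with penicillin-streptomycin at 1% in both media, and a pulse of horse serum at 50% followed for 2 h. Total RNA was sequenced after ribosomal RNA removal at 12, 18, 24, 30, 36, 42, 48, 54 and 60 h after the pulse, with 3 libraries at each time point and 27 in all. Every culture was of the same line and had the same pulse, and no culture without the pulse was analysed here, so 12 h is the earliest state and not an unstimulated one. The labels do not say whether the 3 libraries at a time point are from separate cultures; p-values therefore measure the spread between these libraries, and that spread may be technical.

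The libraries held 15.2 to 26.6 M counts (median 20.9 M), and levels are given as CPM, counts scaled to a library size of 1 M. All 10 genes passed the filter on low counts, with no fewer than 118 reads (Gstm2) in any library. The 19 myotube markers summed to between 24500 and 28500 CPM, 13 markers of reserve cells and myoblasts to between 545 and 650 CPM, and 12 proliferation markers to between 1030 and 1610 CPM. Markers of macrophages and leukocytes summed to at most 9.54 CPM, with Cd3e listed at 0 in every library and Cd14 at 4.5 to 7.71 CPM. Those of endothelium summed to at most 2.53 CPM and those of adipocytes to at most 4.69 CPM. The levels come from whole cultures, in which fewer cells of a type and less RNA per cell cannot be told apart.

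NRF2 is a basic leucine zipper factor that pairs with small MAF proteins and binds antioxidant response elements in the promoters and enhancers of its targets. In resting cells KEAP1 holds NRF2 in the cytoplasm and hands it to the proteasome. When oxidants or electrophiles modify KEAP1, NRF2 escapes and turns on enzymes that reduce quinones, join glutathione to reactive compounds, make glutathione and reduce oxidized thiols. Because this control acts mostly on the protein, the level of Nfe2l2 mRNA is not a measure of NRF2 activity. In skeletal muscle the pathway is known for its part in handling the oxidants that contracting and differentiating fibres make.

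The promoters of 4 members are shown: the factor itself and the targets Nqo1, Srxn1 and Txnrd1. Each runs from 250 bases before to 50 bases after an annotated start (RefSeq, GRCm38.p6), is written 5′ to 3′ along the gene, and has matches to TGACNNNGC, the core of the antioxidant response element, or to TGACTCA, an AP-1 site, in capitals on either strand.
Nfe2l2: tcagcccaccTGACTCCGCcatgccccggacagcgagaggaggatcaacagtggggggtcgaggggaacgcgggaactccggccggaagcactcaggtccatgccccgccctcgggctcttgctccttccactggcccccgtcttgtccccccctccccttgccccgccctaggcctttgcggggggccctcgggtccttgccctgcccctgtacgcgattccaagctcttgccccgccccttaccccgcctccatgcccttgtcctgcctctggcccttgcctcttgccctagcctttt
Nqo1: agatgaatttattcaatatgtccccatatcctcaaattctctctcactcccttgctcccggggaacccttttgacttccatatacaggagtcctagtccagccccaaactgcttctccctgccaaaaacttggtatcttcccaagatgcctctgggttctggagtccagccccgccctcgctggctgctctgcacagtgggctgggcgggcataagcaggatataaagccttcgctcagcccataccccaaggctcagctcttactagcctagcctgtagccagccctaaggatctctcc
Srxn1: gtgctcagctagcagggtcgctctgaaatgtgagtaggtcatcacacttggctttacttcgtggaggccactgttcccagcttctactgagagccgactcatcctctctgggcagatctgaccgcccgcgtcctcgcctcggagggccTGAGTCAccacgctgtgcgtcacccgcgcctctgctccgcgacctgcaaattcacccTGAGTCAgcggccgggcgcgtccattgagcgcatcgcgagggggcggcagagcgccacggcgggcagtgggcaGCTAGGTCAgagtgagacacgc
Txnrd1: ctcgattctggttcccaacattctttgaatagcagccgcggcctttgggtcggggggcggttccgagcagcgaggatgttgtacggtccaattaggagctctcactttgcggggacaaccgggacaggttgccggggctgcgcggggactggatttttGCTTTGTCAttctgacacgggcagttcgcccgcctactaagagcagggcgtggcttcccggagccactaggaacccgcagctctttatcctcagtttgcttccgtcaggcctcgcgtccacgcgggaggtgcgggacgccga
The windows lie at chr2:75704614-75704913 on the minus strand for Nfe2l2, chr8:107403156-107403455 on the minus strand for Nqo1, chr2:152105274-152105573 on the plus strand for Srxn1, and chr10:82858956-82859255 on the plus strand for the second of the 3 annotated Txnrd1 starts. Windows were found for 7 of the 10 members, 10 windows in all, and none for Gsta4, Hmox1 or Gclc. Those of Gstm1, Gstm2 and Gclm are not printed, nor are the other Txnrd1 windows, which held no match to these motifs. A TGACNNNGC match was present in 4 of the 10 windows, those of Nfe2l2 (TGACTCCGC), Gclm (GCACCGTCA), Srxn1 (GCTAGGTCA) and the Txnrd1 window above (GCTTTGTCA); the last 3 read on the opposite strand. Of all 32851 mouse promoter windows of this length, 12.4% held one. The Srxn1 window also held TGACTCA on the opposite strand (TGAGTCA) at both -102 and -45 relative to the start base, a motif present in 5.2% of all windows, and neither overlapped the TGACNNNGC match at 28. CACGTG, the E-box bound by the clock factors BMAL1 and CLOCK, was in 0 of the 10 windows and in 7.15% of all windows. The Nqo1 window held none of the 3 motifs, which says only that these letters are not in these 300 bases.

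Of the 10 genes, 6 had their highest mean at 12 h and 8 had their lowest at 30 or 36 h. Summed over the 10 genes, the mean level was 745 ± 3.71 CPM at 12 h and 659 ± 8.07 CPM at 18 h, then 663 ± 15.1 and 644 ± 17.7 CPM at 24 and 30 h, 579 ± 6.23 CPM at 36 h, 643 ± 10.5 and 612 ± 17.2 CPM at 42 and 48 h, and 664 ± 21.5 and 636 ± 6.66 CPM at 54 and 60 h (SD, n = 3 each). The sum is carried mostly by Txnrd1 and Nfe2l2. Over the 9 time points, 7 of the 10 genes changed (Nqo1, Gstm1, Gsta4, Hmox1, Gclc, Srxn1 and Txnrd1; edgeR quasi-likelihood F test, adjusted p under 0.05 over the 12687 genes tested), where 18.5% of all genes tested were called. Nfe2l2, Gstm2 and Gclm did not pass, with adjusted p of 0.472, 0.705 and 0.148. Cell state markers also moved, in both directions. At 36 h against 12 h, 16.0% of all genes tested were called. Among the proliferation, reserve cell and myotube markers tested, the shares were 66.7%, 41.7% and 21.1%. Of 12 proliferation markers, 6 rose and 2 fell at 36 h against 12 h, among them Cdc20 (0.90) and Ccna2 (0.48) upward and the replication genes Mcm5 (-0.52) and Mcm2 (-0.26) downward, and their summed level was 1260 ± 70.7 CPM at 36 h against 1090 ± 59.9 at 12 h (SD, n = 3 each). Of 12 reserve cell and myoblast markers tested, 4 rose (Sdc4, 0.32, Spry1, 0.26, and Id3 among them) and 1 fell (Cd34, -0.84), with summed levels of 618 to 630 CPM at 36 h against 545 to 571 CPM at 12 h. Of 19 myotube markers, 2 rose and 2 fell, with Myh1, an adult myosin, at 0.54, and Mymx, a fusion peptide gene, and Myog at -0.49 and -0.45; their summed levels were 25900 to 28000 CPM at 36 h against 26000 to 26400 CPM at 12 h. The part of these markers in the results below was not tested.

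**Figure D1:**
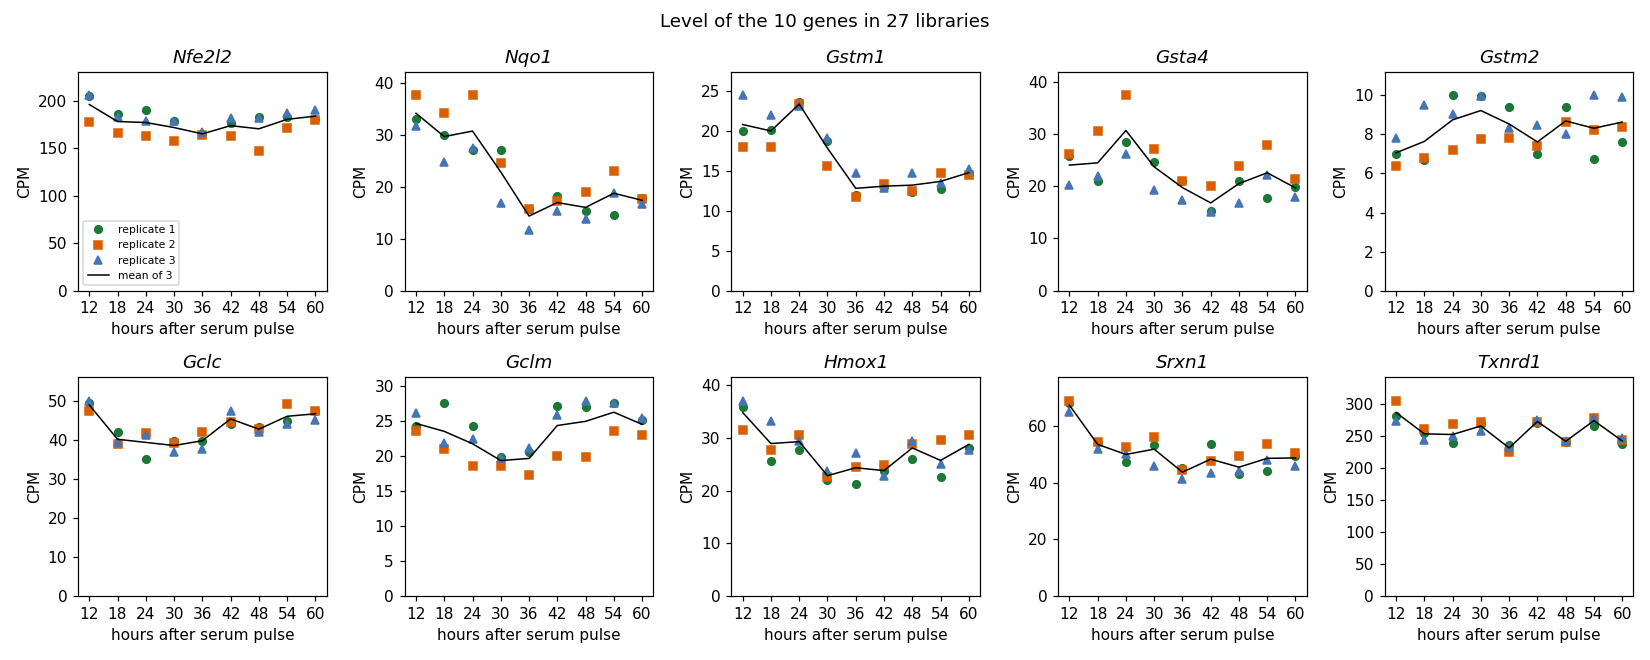
Level of each gene (CPM, linear axes from 0) against hours after the serum pulse; markers are the 3 libraries of each time point by replicate number and the line is their mean. Nqo1 averaged 14.4 CPM at 36 h against 34.3 CPM at 12 h, while Nfe2l2 stayed between 147 and 206 CPM in all 27 libraries.

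Nfe2l2 (ENSMUSG00000015839, chromosome 2, 75675513 to 75704641, minus strand, mm10), the gene of NRF2 itself, moved little. Its level was 165, 164 and 167 CPM in the 36 h libraries, against 205, 178 and 206 CPM in the 12 h libraries. All 36 h libraries were below all 12 h libraries, and the fall, -0.25 ± 0.08 on the log2 scale (SE), had an adjusted p of 0.0395 with edgeR. That call was lost on leaving out any 1 of 5 libraries, though the estimate then stayed between -0.26 and -0.22. Adjusted p was 0.144 without 12 h replicate 1, 0.123 without 12 h replicate 3, and 0.0839, 0.101 and 0.0836 without 36 h replicates 1, 2 and 3. At 60 h the libraries had 181, 180 and 191 CPM, a difference of -0.09 ± 0.08 from 12 h (adjusted p = 0.549). Per kilobase of exon, with all annotated exons of a gene counted, Nfe2l2 had the highest mean level of the 10 genes. In CPM its mean over all libraries, 178, was below that of Txnrd1, 257.

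The genes that hold NRF2 down or pair with it did not move as a group. Of 14 regulators and partners listed, 13 were tested. Their median log2 change at 36 h against 12 h was 0.0112, beside -0.00755 for all genes tested. Of the 13, 1 was called (7.69%, beside 16.0% of all genes tested). That gene was Sqstm1, which encodes p62, an autophagy adaptor that binds KEAP1 and is itself an NRF2 target: it averaged 564 ± 28.6 CPM at 36 h against 792 ± 33.8 CPM at 12 h (SD, n = 3 each), -0.49 ± 0.08 (SE; adjusted p = 0.000125). The linear trend is given here as the log2 change per 48 h from a model that also holds a 24 h wave. Along the course, 3 of the 13 rose in it, where 10.7% of all genes tested did. They were Maff, a small MAF partner (0.77 ± 0.08 SE, adjusted p = 1.95e-07), Keap1 (0.21 ± 0.06, adjusted p = 0.00797) and Bach2, a repressor that competes at the same elements (0.71 ± 0.22, adjusted p = 0.0216; 1.53 ± 0.383, 2.29 ± 0.397 and 2.77 ± 0.417 CPM at 12, 36 and 60 h). Maff averaged 16.8 ± 1.43 CPM at 12 h, then 19.8 ± 2.00 and 24.9 ± 1.24 CPM at 36 and 60 h. Keap1 averaged 63.9 ± 3.43, 68.2 ± 7.49 and 71.5 ± 1.72 CPM at those times (SD, n = 3 each). Maff also passed for the change over the 9 time points and at 60 h against 12 h (edgeR adjusted p = 2.14e-06 and 0.000104). Keap1 (0.211 and 0.18) and Bach2 (0.247 and 0.0557) passed neither.

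Nqo1 (ENSMUSG00000003849, chromosome 8, 107388225 to 107403206, minus strand), which encodes the quinone reductase that serves as the textbook NRF2 target, had the largest range of the 10 genes. It had 15.7, 15.7 and 11.8 CPM in the 36 h libraries, against 33.2, 37.7 and 31.8 CPM in the 12 h libraries. The groups did not overlap, and the fall was -1.25 ± 0.18 on the log2 scale (SE; edgeR adjusted p = 2.20e-05). The level stayed near 30 CPM through the earlier samples, with means of 34.3 ± 3.11, 29.7 ± 4.69 and 30.8 ± 5.96 CPM at 12, 18 and 24 h (SD, n = 3 each). It was 22.9 ± 5.26 CPM at 30 h, and between 14.4 and 18.8 CPM in the means of 36 to 60 h. At 60 h the libraries had 17.8, 17.7 and 16.8 CPM, still below 12 h (-0.98 ± 0.18, adjusted p = 0.000371). All 3 were above the 36 h libraries, but 0.28 ± 0.18 did not pass over all genes (adjusted p = 0.905). The highest time mean was 2.38 times the lowest.

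Gstm1 (ENSMUSG00000058135, chromosome 3, 108012255 to 108017973, minus strand), a mu-class glutathione transferase that joins glutathione to electrophiles, was also lowest at 36 h. It had 12.0, 11.8 and 14.7 CPM in the 36 h libraries, against 20, 18.0 and 24.5 CPM in the 12 h libraries, without overlap (-0.70 ± 0.11 SE, adjusted p = 8.76e-05). Its highest mean was at 24 h, with 23.6, 23.4 and 23.2 CPM in the libraries, and the means of 36 to 60 h lay between 12.8 and 14.8 CPM. At 60 h it was still lower than at 12 h (-0.49 ± 0.11, adjusted p = 0.00291), with 14.7, 14.5 and 15.2 CPM. Of its 50-base transcript stretches, 18.9% also occur in another gene, 14.1% in the pseudogene Gstm2-ps1, so reads could have been split or lost between them and the level is uncertain.

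Gsta4 (ENSMUSG00000032348, chromosome 9, 78182774 to 78209349, plus strand), the alpha-class transferase for 4-hydroxynonenal and other products of lipid peroxidation, was highest at 24 h and lowest at 42 h. It had 28.4, 37.4 and 26.2 CPM in the 24 h libraries and 15.2, 20.1 and 15.1 CPM in the 42 h libraries. It changed over the 9 time points (adjusted p = 0.0440) and fell in the linear trend (-0.50 ± 0.15 SE per 48 h, adjusted p = 0.0179). The first of these calls was lost on leaving out any 1 of 14 of the 27 libraries, with adjusted p of up to 0.148 (without 24 h replicate 2): 12 h replicates 1 and 2, 24 h replicates 1 and 2, 30 h replicate 1, all 3 at 36 h, 42 h replicates 1 and 3, 48 h replicate 1, 54 h replicate 3, and 60 h replicates 1 and 3. At 36 h it had 20.9, 21.0 and 17.3 CPM against 25.8, 26.1 and 20.2 CPM at 12 h. Those libraries overlapped, and the difference of -0.29 ± 0.19 did not pass (adjusted p = 0.357).

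Gstm2 (ENSMUSG00000040562, chromosome 3, 107981702 to 107986453, minus strand), the neighbouring mu-class transferase, was the only member with a positive estimate at 36 h against 12 h. It had 9.41, 7.83 and 8.35 CPM at 36 h against 7.02, 6.36 and 7.79 CPM at 12 h, a difference of 0.27 ± 0.16 that did not pass (SE; adjusted p = 0.307), although the libraries did not overlap. Its time means lay between 7.06 CPM at 12 h and 9.22 CPM at 30 h. Of its 50-base stretches, 5.65% occur in another gene.

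Of 23 other glutathione transferases listed, 16 were tested, and at 36 h against 12 h 1 rose and 3 fell (25% called, beside 16.0% of all genes tested). Estimates were below 0 for 12 of the 16, with a median of -0.213. The 3 that fell were Gsto1, an omega-class enzyme that reduces thiols and arsenic compounds, Mgst1, a membrane-bound transferase, and Gsta3. Gsto1 averaged 114 ± 5.24 CPM at 36 h against 154 ± 9.02 CPM at 12 h (SD, n = 3 each; -0.43 ± 0.07 SE, adjusted p = 0.000111), and Mgst1 differed by -0.56 ± 0.18 (adjusted p = 0.0374). Gsta3 was near the detection limit, with a mean of 0.0635 CPM at 36 h against 0.696 CPM at 12 h. Gstm7, named after its values were seen, was the gene that rose, at a mean of 0.691 CPM over all libraries. Gstz1, which serves tyrosine breakdown, fell in the linear trend (-0.26 ± 0.06, adjusted p = 0.00223), as did Mgst1 (-0.70 ± 0.18, adjusted p = 0.00518) and, named after their values were seen, Gstt1 (-1.43 ± 0.32, 0.00203; a mean of 0.714 CPM over all libraries) and Gsto2 (-0.53 ± 0.16, 0.0183); 0 of the 16 rose.

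The subunits of glutamate-cysteine ligase, the rate-limiting enzyme of glutathione synthesis, both had their lowest mean at 30 h and means close to those of 12 h at 60 h. Gclc (ENSMUSG00000032350, chromosome 9, 77754535 to 77794485, plus strand), the catalytic subunit, had 39.6, 42.0 and 37.8 CPM in the 36 h libraries, against 49.5, 47.3 and 50.1 CPM in the 12 h libraries, and the groups did not overlap (-0.30 ± 0.07 SE, adjusted p = 0.00318). Its means were 40.2 ± 1.59 CPM at 18 h, 39.4 ± 3.73 and 38.6 ± 1.53 CPM at 24 and 30 h, and 45.4 ± 1.83 and 46.7 ± 1.42 CPM at 42 and 60 h (SD, n = 3 each). At 60 h the libraries had 47.5, 47.5 and 45.1 CPM, -0.07 ± 0.07 from 12 h (adjusted p = 0.607). All 3 were above the 36 h libraries, but 0.23 ± 0.07 did not pass over all genes (adjusted p = 0.152).

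Gclm (ENSMUSG00000028124, chromosome 3, 122245557 to 122270732, plus strand), the modifier subunit, had 20.6, 17.2 and 21.1 CPM in the 36 h libraries, against 24.2, 23.6 and 26.1 CPM in the 12 h libraries. The groups were apart, yet -0.33 ± 0.14 did not pass (adjusted p = 0.113), nor did the change over all time points (adjusted p = 0.148; 0.0456 without 48 h replicate 2). Its lowest mean was 19.3 ± 0.722 CPM at 30 h and its highest 26.2 ± 2.25 CPM at 54 h (SD, n = 3 each). Of its 50-base stretches 3.92% occur in another gene, 3.24% in Ppia, and it overlaps an antisense gene and a pseudogene.

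In the list of glutathione synthesis and recycling, 23 of 27 genes were tested, and 5 fell and 1 rose at 36 h against 12 h. These were 26.1% of those tested, beside 16.0% of all genes tested, and the median was -0.138. Slc7a11, the cystine importer, averaged 21.3 ± 1.59 CPM at 12 h and 5.90 ± 0.933 CPM at 24 h, then 11.7 ± 0.908 CPM at 36 h and 15.7 ± 1.82 CPM at 60 h (SD, n = 3 each). Its difference at 36 h against 12 h was -0.87 ± 0.17 (SE; adjusted p = 0.000778). Cth, the enzyme that makes cysteine from cystathionine, averaged 28.4 ± 3.97 CPM at 12 h and 6.05 ± 1.33 CPM at 24 h, then 16.0 ± 3.00 CPM at 36 h and 26.9 ± 2.52 CPM at 60 h. Cth fell at 36 h against 12 h (-0.82 ± 0.16, adjusted p = 0.000486) and rose at 60 h against 36 h (0.75 ± 0.16, adjusted p = 0.0184). The gene that rose at 36 h was Idh1, a cytosolic source of NADPH for glutathione recycling, with 261 ± 31.9 CPM at 36 h against 153 ± 17.6 CPM at 12 h (0.77 ± 0.14, adjusted p = 0.000335). Chac1, which degrades glutathione, changed over the 9 time points (adjusted p = 0.00358). The other genes that fell, named after their values were seen, were Gsr, glutathione reductase (-0.34, adjusted p = 0.00582), G6pdx, which feeds it NADPH (-0.52, 0.00150), and Slc3a2, the partner chain of the cystine importer (-0.55, 0.00457).

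Hmox1 (ENSMUSG00000005413, chromosome 8, 75093621 to 75100589, plus strand), the inducible heme oxygenase, which breaks heme into iron, carbon monoxide and biliverdin, was also lower at 36 h. It had 21.3, 24.5 and 27.2 CPM in the 36 h libraries, against 35.8, 31.6 and 37.1 CPM in the 12 h libraries, with no overlap (-0.52 ± 0.11 SE, adjusted p = 0.00114). The mean was lowest at 30 h, at 22.8 ± 0.864 CPM (SD, n = 3). At 60 h it had 28.1, 30.5 and 27.7 CPM, all below the 12 h libraries, but -0.28 ± 0.10 did not pass (adjusted p = 0.0819). That difference passed on leaving out 12 h replicate 2 (adjusted p = 0.0478), 18 h replicate 3 (0.0475) or 54 h replicate 2 (0.0458).

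Srxn1 (ENSMUSG00000032802, chromosome 2, 152105516 to 152111376, plus strand), sulfiredoxin, which restores over-oxidized peroxiredoxins, had 45.1, 44.7 and 41.5 CPM in the 36 h libraries, against 68.2, 69.1 and 65.1 CPM in the 12 h libraries. The gap between the groups was wide relative to their spread (-0.62 ± 0.09 SE, adjusted p = 1.14e-05). At 18 h the libraries already had 54.4, 54.3 and 52.1 CPM, all below the 12 h libraries. At 60 h, with 49.6, 50.7 and 46.1 CPM, Srxn1 was still lower than at 12 h (-0.47 ± 0.09, adjusted p = 0.000379). Without the 12 h libraries its change over the remaining times did not pass (adjusted p = 0.354).

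Txnrd1 (ENSMUSG00000020250, chromosome 10, 82833951 to 82897712, plus strand), the cytosolic thioredoxin reductase, was the most abundant of the 10 in CPM and had a small, tight change. It had 236, 224 and 233 CPM in the 36 h libraries, against 281, 305 and 273 CPM in the 12 h libraries, without overlap (-0.31 ± 0.05 SE, adjusted p = 0.000113). At 60 h it had 237, 243 and 246 CPM, -0.24 ± 0.05 from 12 h (adjusted p = 0.00166). It overlaps Eid3 on the same strand and a pair of antisense genes, and whether counting used strand is not known here.

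Around these enzymes, 24 thioredoxin, peroxiredoxin and other oxidant-handling genes were tested, of which 5 fell and 1 rose at 36 h against 12 h (median -0.0889). That was 25% of the 24, beside 16.0% of all genes tested. The gene that rose was Msrb3, a methionine sulfoxide reductase (0.43 ± 0.05 SE, adjusted p = 2.11e-06). Txnip, the inhibitor of thioredoxin, averaged 108 ± 4.02 CPM at 36 h against 126 ± 3.84 CPM at 12 h (SD, n = 3 each; -0.23 ± 0.06, adjusted p = 0.00771). At 60 h it averaged 140 ± 4.58 CPM and was higher than at 36 h (0.38 ± 0.06, adjusted p = 0.000953). Sesn1, a sestrin, and Txnrd3, a testis-rich thioredoxin reductase, changed over the 9 time points (adjusted p = 0.00520 and 0.00794). The other 4 that fell at 36 h, named after their values were seen, were Prdx6 (-0.39, adjusted p = 0.00375) and Prdx3 (-0.33, 0.0342), both peroxiredoxins, Txn2, mitochondrial thioredoxin (-0.50, 0.0444), and Nqo2, a quinone reductase related to Nqo1 (-0.32, 0.0251).

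**Figure D2:**
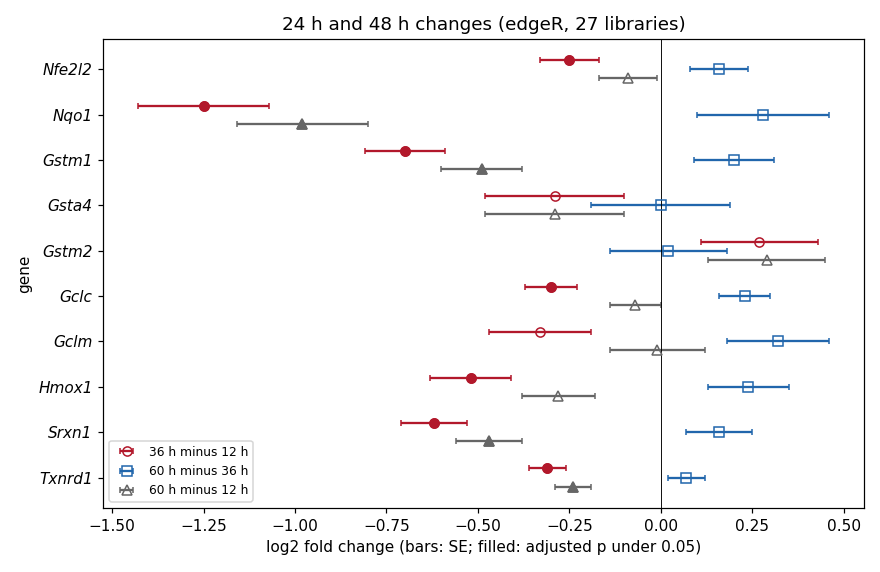
Log2 fold change of each gene at 36 h against 12 h, at 60 h against 36 h and at 60 h against 12 h; bars are SE from edgeR and filled markers have an adjusted p under 0.05. All 7 called changes at 36 h against 12 h are falls, from -0.25 (Nfe2l2) to -1.25 (Nqo1), and none of the 10 genes is called at 60 h against 36 h.

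Set side by side, 7 of the 10 genes fell and 0 rose at 36 h against 12 h, where 6.75% of all genes tested were called lower and 9.30% higher. The 7 were Nfe2l2, Nqo1, Gstm1, Hmox1, Gclc, Srxn1 and Txnrd1, and the median over the 10 was -0.319 beside -0.00755 for all genes tested. At 60 h against 12 h, 4 fell (Nqo1, Gstm1, Srxn1 and Txnrd1) and 0 rose, with 6.56% of all genes tested called lower and 9.50% higher; the median was -0.258. These comparisons share the 12 h libraries. At 60 h against 36 h, 0 of 10 passed with edgeR, DESeq2 or limma-voom, where 0.859% of all genes tested did (0.497% higher and 0.363% lower); 3 had an unadjusted edgeR p under 0.05 (Hmox1, Gclc and Gclm), 9 of 10 estimates were above 0 and the median was 0.181.

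In the linear trend 4 genes fell and 0 rose, where 8.72% of all genes tested were called lower and 10.7% higher. The 4 were Nqo1 (-1.13 ± 0.18 SE per 48 h, adjusted p = 4.66e-05), Gstm1 (-0.79 ± 0.13, adjusted p = 8.36e-05), Gsta4 and Srxn1 (-0.38 ± 0.09, adjusted p = 0.00264). Gclc and Gclm had positive estimates of 0.11 ± 0.08 and 0.18 ± 0.12 that did not pass (adjusted p = 0.357 and 0.323). The 12 h libraries weighed on this: without them Nqo1 (-0.93, adjusted p = 0.0168) and Gstm1 (-0.77, 0.00549) still fell, Gsta4 (-0.54, 0.0947) and Srxn1 (-0.15, 0.410) did not pass, and Gclc (0.37, 0.00130) and Gclm (0.45, 0.0450) rose. Likewise 4 of the 10 genes changed over the other 8 time points: Nqo1, Gstm1, Gclc and Txnrd1. Over all genes tested, 1197 were called there, beside 2345 over all 9 time points.

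**Figure D3:**
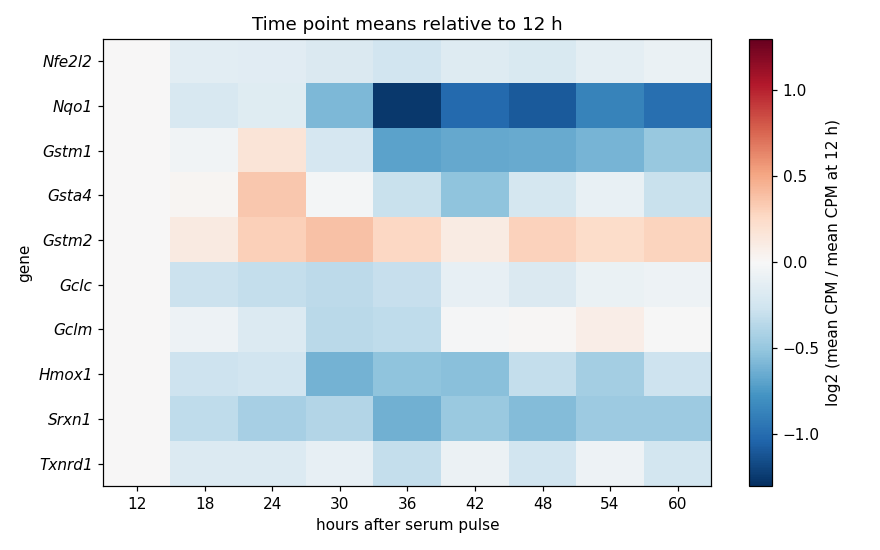
Mean CPM of each gene at each time point relative to its mean at 12 h, as a log2 ratio on a colour scale (blue lower, red higher); rows are genes and columns are hours after the pulse. Nqo1 and Gstm1 stay low from 36 h on, while Gclc and Gclm return towards their 12 h level by 60 h.

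None of the 10 genes had a 24 h rhythm past the threshold with edgeR, DESeq2 or limma-voom, where 0.0552% of all genes tested were called by edgeR. At an unadjusted edgeR p under 0.05 there was 1, Gsta4 (adjusted p = 0.967), whose fitted peak-to-trough swing of 0.40 on the log2 scale was the widest of the 10. The swings of Nfe2l2 and Txnrd1 were 0.07. A sampling step of 6 h also allows a difference between every other time point, the mean of 12, 24, 36, 48 and 60 h minus the mean of 18, 30, 42 and 54 h. There 1 member passed, Hmox1 (0.19 ± 0.05 SE, adjusted p = 0.0423), with 2.24% of all genes tested called, 0.772% higher and 1.47% lower. It did not pass without the 12 h libraries (0.13, adjusted p = 0.340) and was lost on leaving out any 1 of 18 of the 27 libraries (adjusted p of 0.0502 to 0.0798). For Txnrd1 the mean over 12, 24, 36, 48 and 60 h was lower by 0.09 ± 0.02, just outside the threshold (adjusted p = 0.0516). Its 12 h mean, 286 ± 16.5 CPM (SD, n = 3), was nonetheless its highest. Txnrd1 passed without the 12 h libraries (-0.14, adjusted p = 0.00347). It also passed without 12 h replicate 2 (0.0259), 18 h replicate 3 (0.0390) or 24 h replicate 2 (0.0313). The labels name no collection sets, so the alternation cannot be set against one.

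Among other genes known as NRF2 targets, those called at 36 h against 12 h all fell. Of 32 listed, 30 were tested, and at 36 h against 12 h 14 fell and 0 rose, with a median of -0.261. Of all genes tested, 6.75% were called lower and 9.30% higher. The list overlaps those of glutathione and transferase genes above. Abcc4, an exporter of conjugates and nucleotides, averaged 9.11 ± 0.952 CPM at 36 h against 22.9 ± 3.44 CPM at 12 h (SD, n = 3 each; -1.33 ± 0.18 SE, adjusted p = 8.31e-06), and was already at 11.5 ± 1.57 CPM at 24 h. Aldh3a1, an aldehyde dehydrogenase, averaged 41.7 ± 3.57 CPM at 12 h and 77.2 ± 20.3 CPM at 24 h, then 48.8 ± 11.8 CPM at 30 h and 19.5 ± 1.31 CPM at 36 h (-1.09 ± 0.17 at 36 h against 12 h, adjusted p = 7.06e-05). Ephx1, the microsomal epoxide hydrolase, fell by 0.28 (SE 0.09, adjusted p = 0.0293). At 60 h against 12 h, 6 of the 30 fell and 1 rose (Ces1g, a mean of 0.737 CPM over all libraries), and at 60 h against 36 h 1 rose (Gsta3). In these comparisons 16.1% and 0.859% of all genes tested were called.

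**Figure D4:**
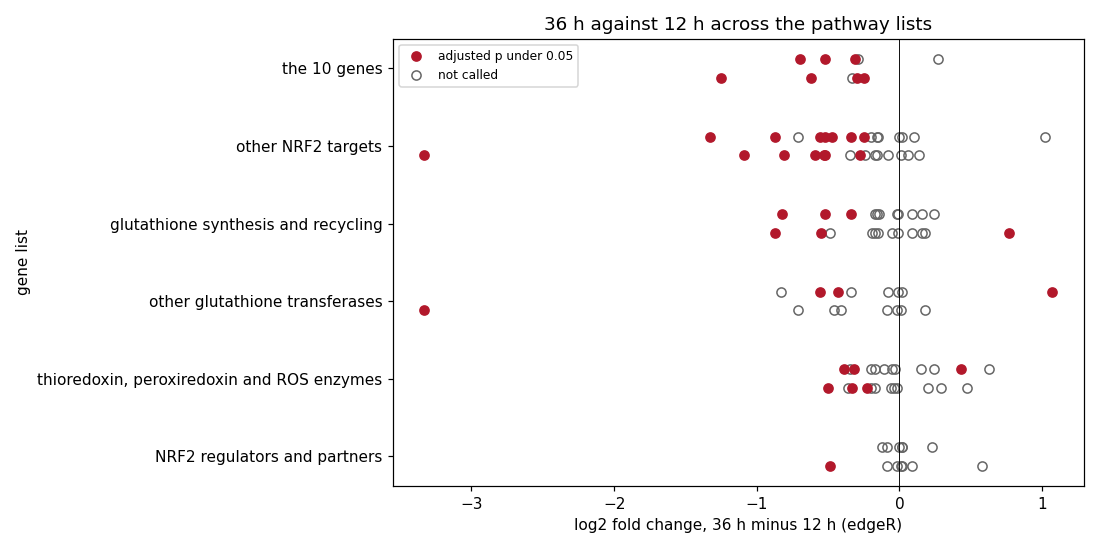
Log2 fold change at 36 h against 12 h (edgeR) for every tested gene of the 10 described here and of the pathway lists; filled points have an adjusted p under 0.05 and open points were not called. The called points of the 10 genes and of the other NRF2 targets all lie left of 0.

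For several of the 10 genes the spread within a time point followed the replicate number. Nfe2l2 and Gclm were lowest in replicate 2 at 9 of 9 time points, by a mean of -0.10 and -0.17 on the log2 scale from the time point mean. Gsta4 was highest in replicate 2 at 9 of 9 time points (0.22), and Nqo1 was highest there at 6 (0.17) and lowest in replicate 3 at 7 (-0.17). Gclc and Txnrd1 did not follow the number, with mean deviations of -0.01, 0.02 and -0.01 for Gclc and -0.02, 0.03 and -0.01 for Txnrd1 in replicates 1, 2 and 3. Across the 27 libraries, after each time point mean was taken off, Nfe2l2 correlated with Gclm at r = 0.81 and with Nqo1 at r = -0.62, and Nqo1 with Gsta4 at r = 0.83. These libraries share replicate numbers, so the values describe these 27 libraries only.

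**Figure D5:**
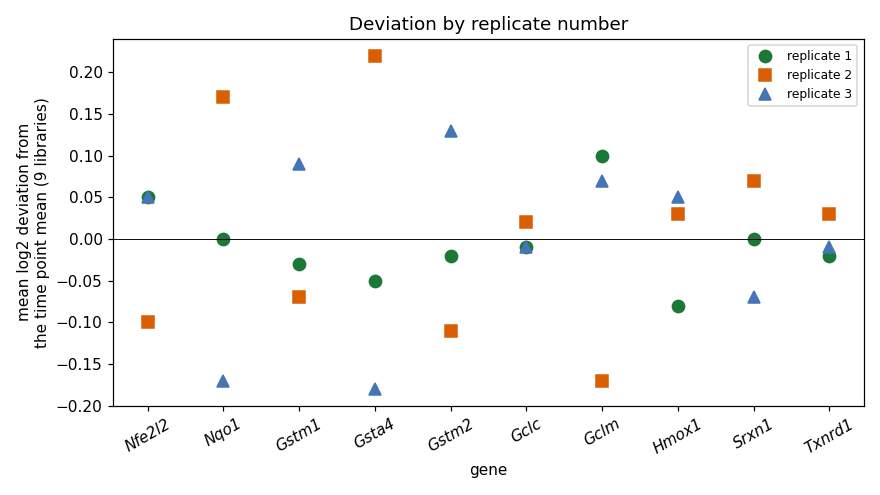
Mean log2 deviation from the time point mean for the libraries numbered 1, 2 and 3 (9 libraries each), by gene. Replicate 2 sits at 0.22 for Gsta4 and at -0.17 for Gclm.

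Levels per kilobase of exon put the 10 genes in order. The length used joins all annotated exons of a gene: 3796 bases for Nfe2l2, 7086 for Txnrd1 and 6291 for Gclm. Exons not used in these cells would lower a gene's value, so the order depends on this length. Means over the 27 libraries were 46.8 ± 3.50 CPM per kilobase for Nfe2l2 and 36.3 ± 2.67 for Txnrd1 (SD, n = 27, time points included), and their ranges over libraries overlapped. Next came Srxn1 at 18.0 ± 2.56, Gsta4 at 17.7 ± 4, Hmox1 at 15.7 ± 2.34 and Nqo1 at 14.4 ± 4.99 CPM per kilobase, neighbours whose ranges overlapped and whose highest library (29.6, Gsta4) was below the lowest of Txnrd1 (31.7). Gclc at 11.4 ± 1.07 and Gstm1 at 11.3 ± 2.76 had close means over the course, but they differed in both directions at single times. Gstm1 had 15.9 ± 0.109 CPM per kilobase at 24 h against 10.5 ± 0.991 for Gclc. At 42 h Gstm1 had 8.88 ± 0.176 against 12.1 ± 0.487 for Gclc (SD, n = 3 each). Gstm2 at 4.93 ± 0.706 and Gclm at 3.69 ± 0.521 CPM per kilobase were lowest, and the highest Gstm2 library (5.98) was below the lowest Gstm1 library (8.01).

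Likeness of course was measured as Pearson's r over the 9 time point means of log2 CPM. The search covered tested protein-coding genes with a mean of at least 1 CPM, leaving out those with only a predicted or clone name. Among the members, Nqo1 and Gstm1 were closest (r = 0.96), followed by Gstm1 and Gsta4 (0.87), Nfe2l2 and Srxn1 (0.84), Nqo1 and Srxn1 (0.83) and Gclc and Gclm (0.81). Nqo1 and Gclc had r = -0.02. Over the genes searched, the courses most like that of Nqo1 were those of Zfp759 (0.982), Uvssa (0.978) and Pcbd2 (0.963). For Srxn1 they were Rnf31 (0.985), Irgm2 (0.967) and Slc16a11 (0.960), and for Hmox1 Ginm1 (0.984), Smim10l1 (0.967) and Ttc13 (0.957). With 9 points and a search over many genes such values are a description only. Pearson's r also takes no account of the size of a change. Pcbd2, Rnf31, Ginm1 and Ttc13 did not pass for the change over the 9 time points (edgeR adjusted p = 0.882, 0.0981, 0.959 and 0.945). Their time means spanned only 0.15 to 0.36 on the log2 scale, beside 1.25, 0.62 and 0.61 for Nqo1, Srxn1 and Hmox1.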

How the data were processed

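The deposited file is a gene count table made by the authors: raw whole-number counts of 20446 Ensembl IDs in 27 columns. Trim Galore 0.4.0, cutadapt 1.9.1, featureCounts and the build mm10 are named in the submitters' processing notes. Per the labels' protocols the libraries were stranded. Not given in the sources used here are the aligner, the annotation and the strand setting of the counting. Names, positions and exon lengths came from GENCODE M21 (20318 genes matched, 128 not); promoters came from RefSeq (GRCm38.p6).

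Genes were kept by filterByExpr with a minimum count of 10 (12687 kept, 7759 left out). Tests were edgeR 4.0.16 quasi-likelihood F tests in R 4.3.3 with TMM scaling (factors 0.979 to 1.03), over all 27 libraries and genes, with Benjamini-Hochberg adjusted p under 0.05. Time was a factor for the change over 9 time points and for pairwise contrasts; the trend (per 48 h) and the 24 h cosine and sine were tested in 1 model. The common biological coefficient of variation was 11.8%. No 2 libraries of a time point were alike within sampling noise (lowest chi-square per degree of freedom 5.63). CPM means used library sizes over all genes and were scaled by TMM. The code was tested on simulated data.

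The 10 genes are all named. From each other list the text names up to 4 tested genes with the smallest p for change over the time points. For likeness it names up to 3 genes per member called for that change. Genes named beyond these, among them Ahr, Tiparp and Ces1g, were named after their values were seen. Members and lists were chosen with earlier results of these data known. Alternatives were DESeq2 1.42.0 and limma-voom (limma 3.58.1), other scaling and filters, a replicate block, and leaving out each library, time or number. The depth of 15.2 to 26.6 M counts gave the members at least 118 reads per library; errors are the spread between libraries, which includes counting error.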

Additional observations from a re-analysis of the deposited data

How the results depend on the processing

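No called result for the 10 genes changed direction under any alternative. The count for the change over the 9 time points was 4 of 10 without the 12 h libraries. For the alternation, it was 2 with DESeq2 and with limma-voom, and 0 without the filter on low counts, without the 9 libraries numbered 2 and without the 60 h libraries; on leaving out 1 library it ran from 0 to 2. The cause was not tested. The other counts of members stayed within 1.5 times of those given under DESeq2, limma-voom, other scaling and filters, and leaving out a library.

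Without the libraries numbered 2, Txnrd1 did not pass for the change over the time points (adjusted p = 0.0821) or at 60 h against 12 h (0.0648), and Gclm passed for the change over the time points (0.0350). In a trend model without the 24 h terms Gsta4 did not pass (-0.42, adjusted p = 0.0562).

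The replicate numbers were not taken to pair the libraries: same-numbered libraries of different time points correlated at over 0.1 in 91 of 108 such pairs of libraries, at the lowest -0.0558 and in the median 0.331. As a hint from the data, 26 of the 27 libraries correlated best with their own number. Libraries of different numbers and time points correlated at -0.19 in the median. With a replicate block, 9 of the 10 genes were called for the change over the time points, now also Nfe2l2 (adjusted p = 0.00889) and Gclm (0.000571), 9 at 36 h against 12 h, now also Gsta4 (0.0386) and Gclm (0.00357), 6 at 60 h against 12 h, now also Gsta4 (0.0335) and Hmox1 (0.0156), 2 at 60 h against 36 h (Gclc, adjusted p = 0.0455, and Gclm, 0.0256) and 2 for the alternation. With the block and without the 12 h libraries, an alternative chosen after seeing the data, the count at 60 h against 36 h was 1. Under the block with all libraries, Nfe2l2 at 36 h against 12 h had an edgeR adjusted p of 0.000366.

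Counts over all genes moved more. For the change over the time points, 2345 genes were called, with 5158 under the block, 1492 without the libraries numbered 2 and 1197 without the 12 h libraries. The block gave 3782 in place of 2037 at 60 h against 12 h, 3839 in place of 2036 at 36 h against 12 h, and 3894 in place of 2466 in the trend, which had 1184 without the 12 h libraries. At 60 h against 36 h, 109 were called, 184 with DESeq2, 395 with the block, 386 with the block and without the 12 h libraries, 33 without the libraries numbered 2 and 47 to 125 on leaving out 1 library. The rhythm called 7, and 11 with DESeq2 or with the block and without the 12 h libraries. The alternation called 284, 1218 with the block, 897 with the block and without the 12 h libraries, and 107 without the libraries numbered 2.

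With 3 libraries a time point and at least 118 reads for each of the 10 genes in each library, a difference that did not pass is not shown to be absent.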

Other observations

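Genes of iron handling moved in both directions at 36 h against 12 h: of 14 heme and iron genes tested, 3 were called higher and 1 lower. Together these were 28.6% of the 14, beside 16.0% of all genes tested. Tfrc, the transferrin receptor that brings iron in, averaged 333 ± 45.1 CPM at 36 h against 198 ± 13.4 CPM at 12 h (SD, n = 3 each; 0.75 ± 0.10 SE, edgeR adjusted p = 1.26e-05). Slc40a1, the iron exporter ferroportin, and Slc11a2, an iron importer, were also higher (0.42, adjusted p = 0.0420, and 0.20, adjusted p = 0.0423). Ftl1, the ferritin light chain, averaged 345 ± 41.2 CPM at 36 h against 496 ± 9.97 CPM at 12 h (-0.52 ± 0.12, adjusted p = 0.00253). Ftl1 has many processed copies in the genome, so its counts are uncertain.

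Of 7 aryl hydrocarbon receptor targets tested, a list that also holds Nfe2l2, Nqo1 and Aldh3a1, 4 fell (these 3 and Cyp1b1) and 2 rose (Ahr, the receptor, and Tiparp, a target that limits it) at 36 h against 12 h. That was 85.7% of the 7, beside 16.0% of all genes tested. Cyp1b1, a cytochrome P450, averaged 62.5 ± 2.16 CPM at 36 h against 85.1 ± 3.30 CPM at 12 h (-0.45 ± 0.08, adjusted p = 0.000452). Ahrr, the receptor's repressor, had a lower mean over 12, 24, 36, 48 and 60 h than over 18, 30, 42 and 54 h (-1.06 ± 0.10, adjusted p = 1.01e-06). It averaged 1.8 CPM at 18 h, then 1.64 ± 0.151, 4.51 ± 0.356 and 1.84 ± 0.718 CPM at 24, 30 and 36 h. Of 19 hypoxia targets tested, 7 rose and 1 fell at 36 h against 12 h (42.1% called, beside 16.0% of all genes tested). In the alternation 9 of them (47.4%) had the higher mean over 12, 24, 36, 48 and 60 h, beside 0.772% of all genes tested. This list was chosen with earlier results of these data known. Hmox1 also had the higher mean there, but did not pass without the 12 h libraries (0.13, edgeR adjusted p = 0.340). Pdk1, which holds pyruvate out of the mitochondrial cycle, averaged 68.9 ± 0.297 CPM at 36 h against 36.3 ± 1.72 CPM at 12 h (0.93 ± 0.08, adjusted p = 6.20e-09). Bnip3, a mitophagy receptor, rose (0.56 ± 0.12, adjusted p = 0.00225) and Ero1l, a disulfide-forming oxidase, fell (-0.59 ± 0.09, adjusted p = 4.47e-05).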
